A study of Mus musculus with 11 samples.

Results

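The genes described here are 9 mouse genes of axon guidance in the retina: the receptors Ephb1, Ephb2 and Ephb3, their ligands Efnb1, Efnb2 and Efnb3, and 3 genes of the ipsilateral ganglion cell program, Zic2, Boc and Slc6a4. They were taken by Ensembl identifier from count tables of 47069 genes, and all 9 were among the 18188 genes that passed the filter on low counts. The study sequenced RNA from dissociated C57BL/6 retinas in 11 libraries at postnatal day 4 (P4) and postnatal day 8 (P8). Wild type had 2 libraries at P4 and 3 at P8, and Kir2.1 had 3 at each age. The Kir2.1 groups (Brn3b-Kir2.1 in the labels) carry a human Kir2.1-eYFP transgene under a CAG promoter, silent until Cre removes a STOP cassette, together with a Brn3b-cre driver, which acts in retinal ganglion cells. Kir2.1 is an inwardly rectifying potassium channel that lowers the excitability of a neuron. The control is wild type in the genotype field and Brn3b-cre in the extraction protocol, so whether the controls also carried Cre is unclear. The later age is day 8 in the age field and day 11 in that protocol, and P8 is used here as the field's value. The source field names retinal ganglion cells, but the protocol dissociates whole retinas and describes no sorting. The labels do not say whether replicates were separate animals or litters, so p-values measure the spread between these samples, which may be technical.

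EphB receptors are tyrosine kinases that bind membrane-anchored ephrin-B ligands on neighbouring cells, and both partners signal into their own cell. In the developing visual system they direct axons along the dorsal-ventral axis of the map, and ephrin-B2 on midline glia turns Ephb1-bearing axons of the ventrotemporal retina back at the chiasm, so that these axons project to the same side of the brain. Zic2 is the transcription factor that specifies these ipsilateral ganglion cells and activates Ephb1. Boc, a co-receptor for Sonic hedgehog, and Slc6a4, the serotonin transporter, are also expressed by them.

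The promoters of the EphB receptors and of Efnb2, the members of the EphB and ephrin-B families whose RNA fell between P4 and P8 in Kir2.1 retinas, are printed with the core letters of the Zic binding motif, CCTGCTG or its reverse complement CAGCAGG, in capitals. Each window runs 5′ to 3′ on the gene's strand from 250 bases before to 50 bases after the RefSeq start site (build GRCm38.p6). The windows are chr9:102354644-102354943 (minus strand) for Ephb1, chr4:136835963-136836262 (minus strand) for Ephb2, chr16:21204545-21204844 (plus strand) for Ephb3 and chr8:8661193-8661492 (minus strand) for Efnb2.
Ephb1: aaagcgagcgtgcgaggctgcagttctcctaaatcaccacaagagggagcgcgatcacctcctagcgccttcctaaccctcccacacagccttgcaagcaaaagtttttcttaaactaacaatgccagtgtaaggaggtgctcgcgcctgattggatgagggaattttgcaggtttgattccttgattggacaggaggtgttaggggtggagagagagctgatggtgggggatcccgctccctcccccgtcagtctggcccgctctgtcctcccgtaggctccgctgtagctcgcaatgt
Ephb2: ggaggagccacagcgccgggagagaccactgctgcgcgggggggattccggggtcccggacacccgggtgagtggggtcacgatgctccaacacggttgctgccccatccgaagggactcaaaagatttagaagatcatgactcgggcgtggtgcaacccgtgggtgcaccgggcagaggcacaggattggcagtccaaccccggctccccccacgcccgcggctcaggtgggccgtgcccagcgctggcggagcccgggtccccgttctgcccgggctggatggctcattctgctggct
Ephb3: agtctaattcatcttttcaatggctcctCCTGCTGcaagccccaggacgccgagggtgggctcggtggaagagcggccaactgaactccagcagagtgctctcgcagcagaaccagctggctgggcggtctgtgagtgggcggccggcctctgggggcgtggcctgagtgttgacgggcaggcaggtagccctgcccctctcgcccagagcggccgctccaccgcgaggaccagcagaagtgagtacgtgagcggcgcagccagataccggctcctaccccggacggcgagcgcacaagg
Efnb2: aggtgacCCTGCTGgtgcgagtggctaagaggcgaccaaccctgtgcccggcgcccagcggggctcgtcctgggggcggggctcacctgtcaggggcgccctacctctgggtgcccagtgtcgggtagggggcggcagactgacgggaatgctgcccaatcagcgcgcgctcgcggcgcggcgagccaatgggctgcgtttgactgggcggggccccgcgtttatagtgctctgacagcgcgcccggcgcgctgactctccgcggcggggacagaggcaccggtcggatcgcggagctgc
The letters occur once in the Ephb3 window and once in the Efnb2 window, starting at positions -222 and -243 relative to the start site. They are not in the Ephb1 or Ephb2 window, nor in those of Efnb1 and Slc6a4, so that 2 of the 6 member windows held them. Of 32851 RefSeq promoter windows of the same length, 10.5% held the letters on either strand. A match describes the letters and is not a measured binding site. The windows of Zic2, Boc and Efnb3 were not used here.

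By GENCODE M21 (GRCm38, the sequence of the mm10 build in the submitters' processing notes), the receptors lie on chromosome 9 (Ephb1, 101922128 to 102354693, minus strand), chromosome 4 (Ephb2, 136647539 to 136835988, minus strand) and chromosome 16 (Ephb3, 21204755 to 21223305, plus strand). The ligands lie on the X chromosome (Efnb1, 99136130 to 99148991, plus strand), chromosome 8 (Efnb2, 8617434 to 8661242, minus strand) and chromosome 11 (Efnb3, 69554092 to 69560205, minus strand). Zic2 lies on chromosome 14 (122475435 to 122479852, plus strand), Boc on chromosome 16 (44485049 to 44558897, minus strand) and Slc6a4 on chromosome 11 (76998603 to 77032340, plus strand). All 9 are protein-coding, and counts are over their exons. Only Ephb1 shared exonic sequence with another gene, 152 bases with the antisense Gm26846, which is 2.17% of its exon length, and whether the authors' counting used strand is not given in the sources used here.

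Libraries held 9362215 to 12478838 counts in genes. Kir2.1 P8 replicate 2 stood apart, with 31325 genes detected against 22609 to 24591 in the other 10 libraries. It also had the highest sums of pigment epithelium markers (30.7 CPM, against 5.61 to 8.89 in the others) and erythrocyte markers (20.8 CPM, against 0.085 to 6.63). The summed level of 15 ganglion cell markers was 2025 and 1339 CPM (counts relative to library size, TMM-scaled) in wild-type P4, 1060, 468 and 1109 CPM in Kir2.1 P4, 277 to 518 CPM in wild-type P8 and 290.2 to 406 CPM in Kir2.1 P8. Every Kir2.1 P4 library was thus below both wild-type P4 libraries, and the P8 groups overlapped. The summed level of 12 rod photoreceptor markers was 226 and 1171 CPM in the wild-type P4 libraries, 441 to 707 CPM in Kir2.1 P4, 763, 3016 and 6749 CPM in wild-type P8 replicates 1, 2 and 3, and 6112 to 6533 CPM in Kir2.1 P8. Wild-type P4 replicate 2 thus held more rod RNA than wild-type P8 replicate 1, which stands apart from the rest of its group. Markers of dividing cells summed to 1098 to 3158 CPM at P4 and 102 to 166 CPM at P8. The transgene is human, so no row of the mouse count tables checked the genotype labels.

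Between P4 and P8, Zic2 fell in both genotypes, and Ephb1, Ephb2, Ephb3 and Efnb2 fell in Kir2.1. Of the 9 members, 5 passed the edgeR test in Kir2.1, all lower, where 16.7% of all genes tested passed and 8.73% passed lower. In wild type 1 of 9, Zic2, passed lower, where 4.39% of all genes passed and 3.58% passed lower. The median log2 fold change of the members was -0.83 in Kir2.1 and -0.36 in wild type, against 0.0046 and 0.026 over all 18188 genes. The wild-type median moved to -0.60 when replicate 1 of wild-type P8 was omitted and to -0.15 when its replicate 3 was. The log2 fold change was below 0 for 9 of 9 members in Kir2.1 and 8 of 9 in wild type, where 49.6% and 47.4% of all genes were below 0. The libraries of the ages did not overlap, with P8 lower, for 6 members in Kir2.1 and 4 in wild type, against 18.7% and 16.9% of all genes. This difference between the genotypes was not itself significant for any member. The 9 tests of it had an edgeR adjusted p of 1 (0% of all genes passed, and 3.09% of all genes and 0 members had an unadjusted p under 0.05), so the larger count in Kir2.1 does not show that the age change differed. Of the ganglion cell markers, 11 of 15 passed lower and 1 higher in Kir2.1 and 13 lower and 0 higher in wild type, with medians of -1.47 and -2.25, and their part in the age changes of the members was not tested. The 2 age comparisons use different libraries and each shares its libraries with the genotype comparisons.

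Between Kir2.1 and wild type no member passed the edgeR test at either age. At P4, 0 of 9 members passed and 0% of all genes passed (7.22% had an unadjusted edgeR p under 0.05, and 0 members did). At P8, 0 of 9 members passed and 0% of all genes passed (6.82% had an unadjusted p under 0.05, and 0 members did). At P8 the log2 fold change was below 0 for 7 of 9 members, with a median of -0.32, where 49.4% of all genes were below 0 and their median was 0.0034. Without wild-type P8 replicate 1 the median was -0.089, with 7 of 9 still below 0. At P4 it was above 0 for 7 of 9 members, with a median of 0.13, where 51.3% of all genes were above 0 and their median was 0.011. This direction rests on 1 library: without wild-type P4 replicate 2 the median was -0.039 and 2 of 9 members were above 0. Omitting replicate 1 gave a median of 0.29 where it was the wild-type P4 library and of 0.064 where it was the Kir2.1 P4 library. These medians describe the list. Of the 15 ganglion cell markers, 15 had a log2 fold change below 0 at P4 (median -0.87) and 13 at P8 (median -0.19), and 0 passed at either age. At P4, 10 of 10 dividing-cell markers (median 0.31) and 10 of 10 microglia markers (0.30) were above 0, and 9 of 10 bipolar cell markers (-1.44), 9 of 10 endothelial and pericyte markers (-1.07) and 9 of 12 rod markers (-0.35) were below. The summed levels of each of these lists overlapped between genotypes. Endothelial and pericyte sums were 587 and 466 CPM in wild-type P4 and 619, 753 and 449 CPM in Kir2.1 P4. Bipolar sums were 262 and 436 CPM in wild-type P4 and 272 to 360 CPM in Kir2.1 P4. Wild-type P4 replicate 2 had 1098 CPM of dividing-cell markers, against 3018 CPM in wild-type P4 replicate 1 and 2407 to 3158 CPM in Kir2.1 P4. At P8 the microglia markers had 10 of 10 above 0 (median 0.39), the rod markers had 12 of 12 above 0 (median 0.88) and 10 amacrine cell markers had 10 below 0 (median -0.47), and 0 of any of these lists passed at either age. The microglia sums overlapped, at 123, 190 and 196 CPM in wild-type P8 and 366, 119 and 200 CPM in Kir2.1 P8. The amacrine sums were 4487, 2879 and 2004 CPM in the wild-type P8 libraries and 2374, 1581 and 2516 CPM in those of Kir2.1, and replicate 1 was the highest and replicate 3 the lowest in wild type, as for Ephb2. The part of these lists in the genotype values of the members was not tested.

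**Figure D1:**
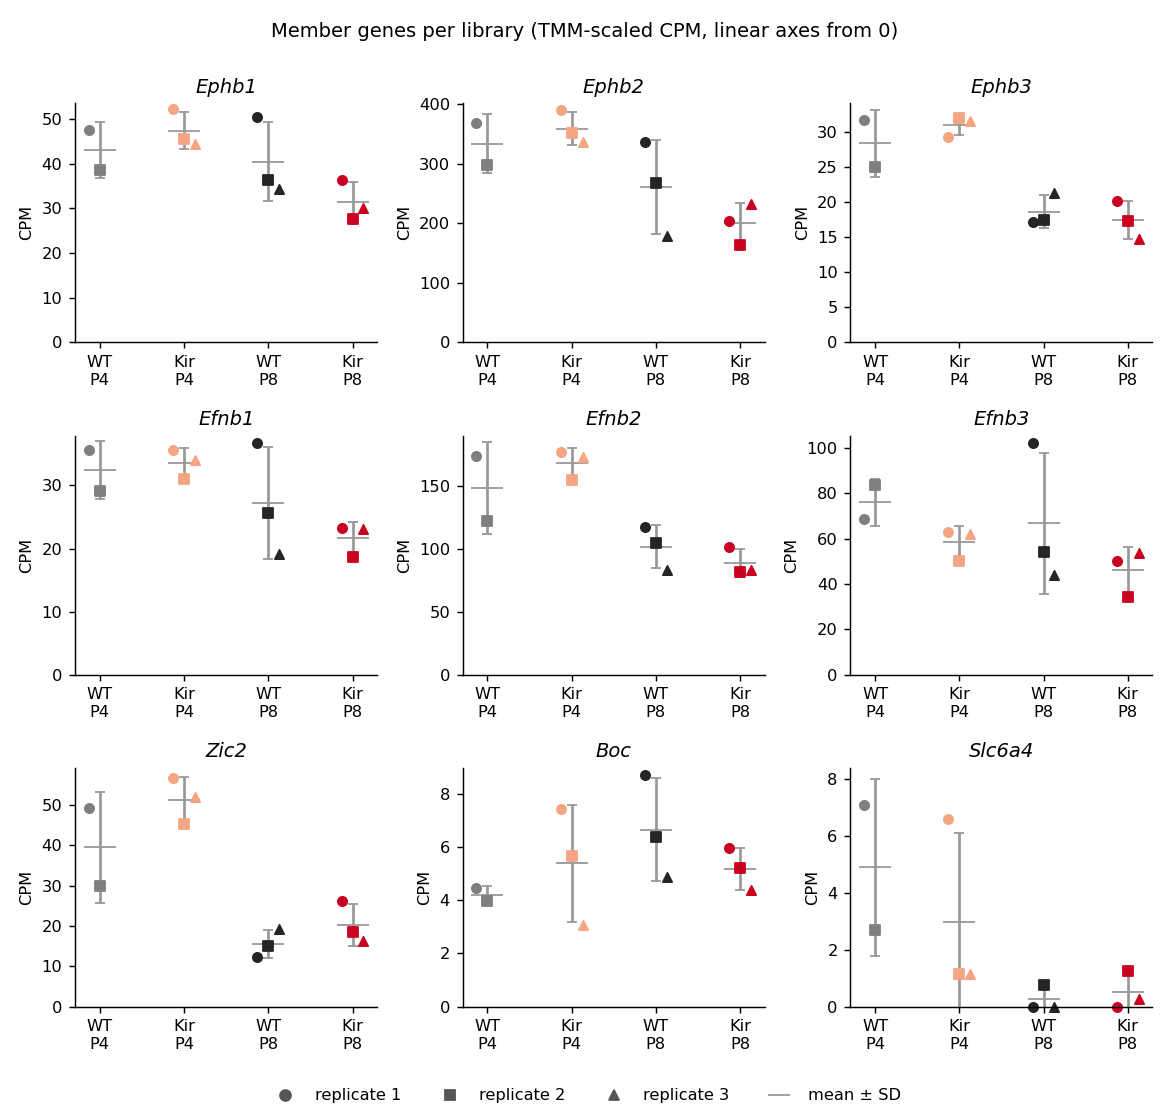
TMM-scaled CPM of the 9 member genes (vertical axes, linear from 0) in wild-type (WT) and Kir2.1 (Kir) retinas at P4 and P8, with 1 symbol per library by replicate number and grey bars for the group mean ± SD (n = 2 for wild type P4, n = 3 for the others). Zic2 sits between 29.8 and 56.6 CPM at P4 and between 12.2 and 26.1 CPM at P8, whereas the libraries of Boc overlap between ages in Kir2.1.

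Ephb2 was the most abundant receptor. Wild-type P4 replicates 1 and 2 had 369 and 298 CPM of it, and the Kir2.1 P4 libraries had 389.5, 351 and 336 CPM. The P8 levels were 336, 267 and 179 CPM in wild type, and Kir2.1 had 204, 164 and 232 CPM. Every Kir2.1 P8 library lay below every Kir2.1 P4 library, whereas wild-type P8 replicate 1 lay within the wild-type P4 range. The level fell 1.79-fold with age in Kir2.1 (log2 fold change -0.84 ± 0.20 SE, edgeR adjusted p = 0.0139), and the call was lost without Kir2.1 P4 replicate 1 (-0.80, edgeR adjusted p = 0.0548) or Kir2.1 P8 replicate 2 (-0.72, edgeR adjusted p = 0.0607), the library with the highest pigment epithelium and erythrocyte sums. In wild type the change was -0.36 ± 0.22 (edgeR adjusted p = 0.428).

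Between genotypes at P8, Ephb2 had a mean level of 261 CPM (SD 78.7, n = 3) in wild type and of 199.8 CPM (SD 33.9, n = 3) in Kir2.1, a log2 fold change of -0.38 with a 95% interval from -0.82 to 0.054 (edgeR adjusted p = 0.699). The groups overlapped, because wild-type P8 replicate 3, at 179 CPM, lay inside the Kir2.1 range. In the authors' deposited table the P8 log2 fold change of Ephb2 was -0.57 ± 0.19 (SE) with an adjusted p of 0.0349, and Ephb2 was the only member called there, where 7.27% of the genes with an adjusted p were called. Which libraries entered that table is not given in the sources used here. Across 13392 genes its P8 fold changes had an r of 0.94 with those of the P8 libraries without wild-type P8 replicate 3 and of 0.86 with all 6 included, as a description. A DESeq2 test on all libraries gave Ephb2 -0.39 with an adjusted p of 0.674. The DESeq2 test on the P8 libraries without wild-type P8 replicate 3, chosen after seeing the data, gave -0.59 with an adjusted p of 0.0334, and it called 1288 genes, 7.61% of those tested. In the edgeR fit, leaving out the same library gave -0.59 with an adjusted p of 0.0706, whereas leaving out wild-type P8 replicate 1, which stands apart in rod content, gave -0.16 with an adjusted p of 0.9998.

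Ephb1, the receptor that Zic2 activates in ipsilateral ganglion cells, was at 47.5 and 38.6 CPM in wild-type P4 and at 52.2, 45.4 and 44.4 CPM in Kir2.1 P4. The P8 libraries gave 50.5, 36.4 and 34.3 CPM for wild type, then 36.4, 27.7 and 30.1 CPM for Kir2.1. All 3 Kir2.1 P8 libraries were below all 3 Kir2.1 P4 libraries, a 1.51-fold fall (log2 fold change -0.59 ± 0.17, edgeR adjusted p = 0.0351). This call was the weakest of the 5. It held when Kir2.1 P8 replicate 1 was left out and was lost when any other Kir2.1 library was, with edgeR adjusted p from 0.0630 to 0.123 and log2 fold changes from -0.64 to -0.51. In wild type Ephb1 showed a change of -0.091 ± 0.19 (edgeR adjusted p = 0.849). At P8 the level in Kir2.1 was 1.29-fold below that in wild type, with a 95% interval on the log2 scale from -0.74 to 0.012 (edgeR adjusted p = 0.699), and the libraries overlapped narrowly. Without wild-type P8 replicate 1 the log2 difference was -0.17.

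Ephb3, a receptor that acts with Ephb2 in dorsal-ventral guidance, was at 31.7 and 25.0 CPM in wild-type P4 and at 29.3, 32.0 and 31.5 CPM in Kir2.1 P4. It was at 17.1, 17.4 and 21.3 CPM in wild-type P8 and at 20.1, 17.3 and 14.7 CPM in Kir2.1 P8. No P8 library of either genotype reached a P4 library. The fall was 1.78-fold in Kir2.1 (log2 fold change -0.83 ± 0.17, edgeR adjusted p = 0.00556). In wild type the change was -0.60 ± 0.18 and missed the threshold (edgeR adjusted p = 0.0909). The difference between genotypes was small beside its error at P8, at -0.099 with a 95% interval from -0.46 to 0.27 on the log2 scale (edgeR adjusted p = 0.901).

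Ephb4 and Ephb6, the other EphB receptors, and Epha4, which also binds B-class ephrins, did not pass in any of the 5 contrasts. Between P4 and P8 in Kir2.1 their log2 fold changes were -0.29 ± 0.33 for Ephb4, 0.031 ± 0.24 for Ephb6 and -0.25 ± 0.20 for Epha4. Ephb6, which has no active kinase, was lower in every Kir2.1 P4 library than in either wild-type P4 library (-0.42 ± 0.27, edgeR adjusted p = 0.737), where 14.4% of all genes separated the groups in this direction. Efna5, an A-class ligand that can also bind Ephb2, did not pass either, with -0.088 ± 0.20 between ages in Kir2.1.

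Among the ligands, Efnb2 was the only one to pass, between ages in Kir2.1. It encodes an ephrin-B expressed by cells of the dorsal retina. Its level was 174 and 122 CPM in wild-type P4, at 177, 155 and 173 CPM in Kir2.1 P4, at 118, 105 and 83.4 CPM in wild-type P8 and at 102, 81.3 and 83.5 CPM in Kir2.1 P8. All P8 libraries were below all P4 libraries, although wild-type P4 replicate 2 and wild-type P8 replicate 1 were close. The level fell 1.89-fold in Kir2.1 (log2 fold change -0.92 ± 0.16, edgeR adjusted p = 0.00278). In wild type the change was -0.54 ± 0.18 (edgeR adjusted p = 0.114), and it passed without wild-type P4 replicate 2 (-0.77, edgeR adjusted p = 0.0364), a fit in which the 1 remaining wild-type P4 library is assumed to vary like the other groups. It passed in none of the other 4 fits that left out 1 library, and omitting wild-type P4 replicate 1 gave -0.27 (edgeR adjusted p = 0.869). At P8, Kir2.1 differed from wild type by -0.20 with a 95% interval from -0.55 to 0.16 (edgeR adjusted p = 0.769). Without wild-type P8 replicate 1 this value was -0.083.

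Efnb1, a ligand encoded on the X chromosome, was at 29.2 to 35.7 CPM in the 5 P4 libraries, at 36.7, 25.7 and 19.1 CPM in wild-type P8 and at 23.2, 18.7 and 23.1 CPM in Kir2.1 P8. The Kir2.1 libraries separated by age, but the change of -0.63 ± 0.21 missed the threshold (edgeR adjusted p = 0.0619). It passed in the fit with the replicate number as a block (-0.63, edgeR adjusted p = 0.0453) and in 5 further settings, but in 0 of 6 fits that left out 1 Kir2.1 library (edgeR adjusted p from 0.0916 to 0.189). In wild type the age change was -0.26 ± 0.23 (edgeR adjusted p = 0.617).

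Efnb3, a ligand found mainly in the nervous system, varied widely among the wild-type P8 libraries. It was at 68.7 and 83.5 CPM in wild-type P4 and at 63.1, 50.2 and 62.1 CPM in Kir2.1 P4. Wild-type P8 had 102, 54.1 and 43.9 CPM, and Kir2.1 P8 had 50.2, 34.4 and 53.6 CPM. It was the only member whose genotypes did not overlap at P4, where every Kir2.1 library was lower; 14.4% of all genes separated the groups in this direction. The log2 fold change between genotypes at P4 was -0.38 ± 0.30, with an edgeR adjusted p of 0.792. The P8 value was -0.53 ± 0.27, with an edgeR adjusted p of 0.699. Without wild-type P8 replicate 1, the library at 102 CPM, the P8 value was -0.089. In the authors' deposited table Efnb3 had a P8 log2 fold change of -0.80 with an adjusted p of 0.0563.

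Zic2 was the only member to pass the edgeR test between ages in both genotypes, and the DESeq2 test called Ephb3 in wild type too (-0.60, DESeq2 adjusted p = 0.0401). It was at 49.1 and 29.8 CPM in wild-type P4 and at 56.6, 45.3 and 51.8 CPM in Kir2.1 P4. The later libraries had 12.2, 15.1 and 19.1 CPM (wild type) and 26.1, 18.6 and 16.2 CPM (Kir2.1). No P8 library reached the lowest P4 library. The fall was 2.54-fold in wild type (log2 fold change -1.35 ± 0.26, edgeR adjusted p = 0.0111) and 2.52-fold in Kir2.1 (-1.33 ± 0.24, edgeR adjusted p = 0.00288), with a difference between them of 0.011 and a 95% interval from -0.75 to 0.77. The wild-type call was lost without wild-type P4 replicate 1, which leaves 1 wild-type library at P4 (-0.94, edgeR adjusted p = 0.283), and when only the 5 wild-type libraries were fitted (-1.36, edgeR adjusted p = 0.101). Between genotypes the fitted Zic2 level was higher in Kir2.1 by 0.38 ± 0.26 on the log2 scale at P4, with an edgeR adjusted p of 0.763. The P8 difference was 0.39 ± 0.24, with an edgeR adjusted p of 0.711, and the libraries overlapped at both ages. The P4 value was 0.064 without wild-type P4 replicate 2 and 0.78 when replicate 1 was omitted instead, and the P8 value was 0.16 without Kir2.1 P8 replicate 1.

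Boc was low and gave no call. It was at 4.45 and 3.98 CPM in wild-type P4 and at 7.44, 5.68 and 3.06 CPM in Kir2.1 P4, then at 8.70, 6.38 and 4.88 CPM in wild-type P8 and at 5.96, 5.22 and 4.37 CPM in Kir2.1 P8. It was the only member higher at P8 in wild type, where the groups did not overlap (log2 fold change 0.66 ± 0.39, edgeR adjusted p = 0.405) and where 14.2% of all genes separated upward. In Kir2.1 the ages overlapped (-0.055 ± 0.34, edgeR adjusted p = 0.944).

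Slc6a4 had the lowest mean level of the members over the 11 libraries (1.91 CPM, against 5.47 CPM for Boc), and its values rest on few counts. In wild-type P4 its mean of 4.90 CPM was above that of Boc (4.21 CPM). Its counts were 83 and 32 in wild-type P4 and 71, 15 and 13 in Kir2.1 P4, which is 7.10 and 2.71 CPM and 6.60, 1.15 and 1.14 CPM. At P8 it had 0, 9 and 0 counts in wild type and 0, 12 and 3 counts in Kir2.1. Every P8 wild-type library was below every P4 wild-type library, but in Kir2.1 P8 replicate 2 stood at 1.25 CPM, above 2 of the P4 libraries. A count of 0 allows up to 3 counts, or 0.230 to 0.313 CPM depending on the library, for counting error only. The fitted age change was -4.20 in wild type with a 95% interval from -7.13 to -1.26 (edgeR adjusted p = 0.107) and -2.58 in Kir2.1 with an interval from -5.22 to 0.046 (edgeR adjusted p = 0.177). With 1 library left out the wild-type value ran from -8.82 (without wild-type P8 replicate 2) to -3.35, and the Kir2.1 value from -4.39 (without Kir2.1 P8 replicate 2) to -1.25 (without Kir2.1 P4 replicate 1). With no filter on low counts both passed (edgeR adjusted p of 4.43e-07 in wild type and 0.00119 in Kir2.1), where 5.63% and 10% of all genes did. Between genotypes the intervals ran from -3.20 to 1.74 at P4 and from -2.25 to 4.01 at P8, so a difference between genotypes was not detectable with these libraries, whose counts also spread widely within a group at P4.

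**Figure D2:**
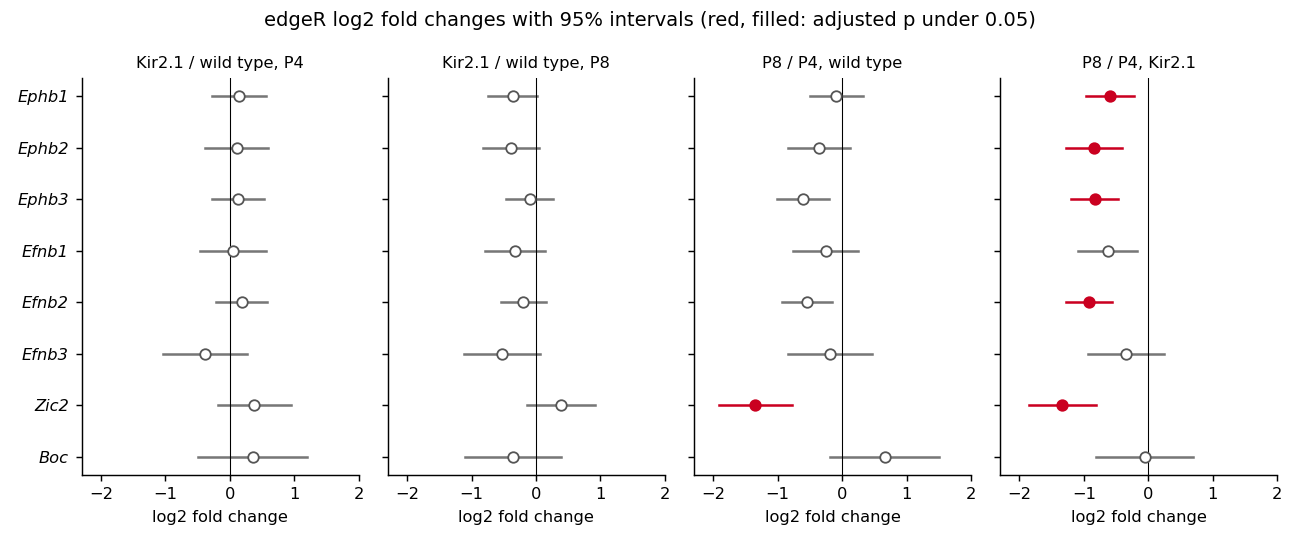
edgeR log2 fold changes (horizontal axes) of 8 members with 95% intervals (lines) for the genotype contrast at each age and the age contrast in each genotype; red filled points have an adjusted p under 0.05. Slc6a4 is left out because its intervals are wider than the axes. Red points stand at -1.35 for Zic2 in wild type and at -0.59 to -1.33 for Ephb1, Ephb2, Ephb3, Efnb2 and Zic2 in Kir2.1, and both genotype panels have none.

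Levels were compared between genes as CPM per kilobase of exon, from GENCODE M21 exon lengths. Ephb2 led in Kir2.1 P4 (28.4 ± 2.21, SD, n = 3), wild-type P4 (26.5 ± 3.95, n = 2) and Kir2.1 P8 (15.8 ± 2.69, n = 3), and its libraries overlapped those of the next gene in wild-type P4 and Kir2.1 P8. In Kir2.1 P4 they did not, with 26.6 in the lowest Ephb2 library and 25.9 in the highest Efnb2 library. In wild-type P8, Efnb3 (21.0 ± 9.77) and Ephb2 (20.7 ± 6.24) did not differ beyond their spread. By group mean Ephb2, Efnb2 and Efnb3 took the first 3 places in each group, and only in Kir2.1 P4 did Efnb2 (24.6 ± 1.77) clear Efnb3 (18.4 ± 2.25) by more than their SDs. Zic2 had 13.7 ± 4.74 in wild-type P4 and 17.8 ± 1.98 in Kir2.1 P4, with a margin over Efnb1 (9.39 ± 1.33 and 9.74 ± 0.67) that cleared the SDs only in Kir2.1. In Kir2.1 P4 the Zic2 libraries (15.7 to 19.7) lay at the level of those of Efnb3 (15.8 to 19.8). At P8 Zic2 was at 5.38 ± 1.21 in wild type and 7.04 ± 1.80 in Kir2.1. It was not apart from Efnb1 in either genotype (7.87 ± 2.58 and 6.28 ± 0.75) or, in wild type, from Ephb1 (5.77 ± 1.26). Ephb3 followed, at 2.62 to 4.66 in the 4 group means, and Boc and Slc6a4 came last, with Boc at 0.69 to 1.96 in single libraries. In bulk retina, fewer cells of a type and less RNA per cell cannot be told apart.

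**Figure D3:**
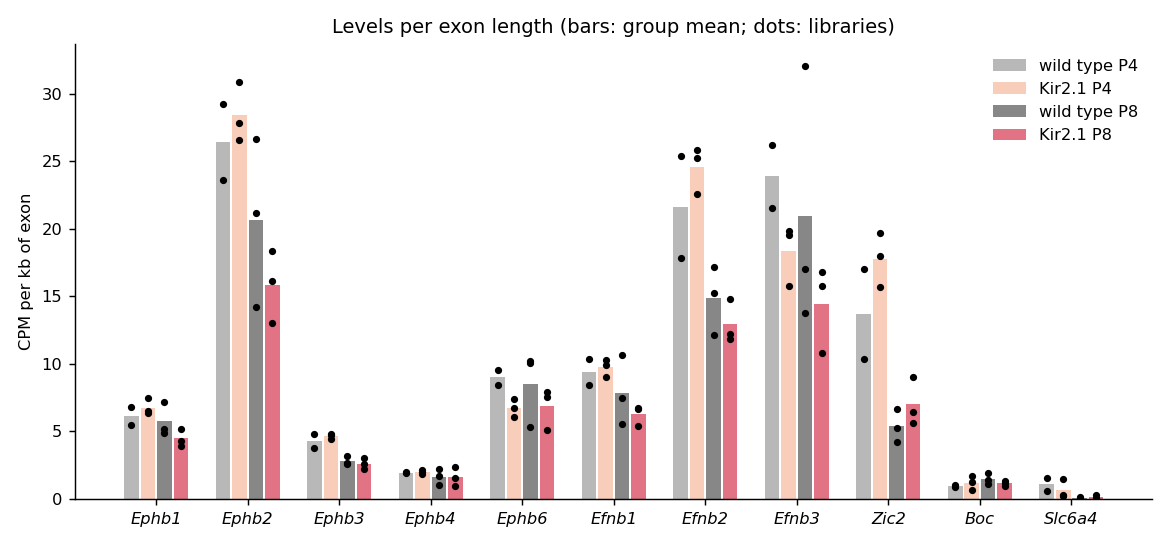
Level per exon length (vertical axis, CPM per kb, linear from 0) of the members and of the receptors Ephb4 and Ephb6, with bars for group means and dots for libraries. Ephb2, Efnb2 and Efnb3 have the 3 highest bars of each group, with the Zic2 libraries of Kir2.1 P4 level with those of Efnb3, and Zic2 bars drop from 13.7 and 17.8 at P4 to 5.38 and 7.04 at P8.

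Within the receptor family, Ephb2 took 55.2% ± 1.01 (SD, n = 2) of the summed per-kilobase level of Ephb1, Ephb2, Ephb3, Ephb4 and Ephb6 in wild-type P4, 58.5% ± 1.86 (n = 3) in Kir2.1 P4, 52.0% ± 2.55 (n = 3) in wild-type P8 and 50.4% ± 3.73 (n = 3) in Kir2.1 P8. Ephb6 took 18.9% ± 0.84, 13.9% ± 1.58, 21.4% ± 3.04 and 21.7% ± 1.62 in the same groups. Among the ligands in Kir2.1, Efnb2 took 46.7% ± 0.83 at P4 and 38.7% ± 4.15 at P8, and Efnb3 took 34.8% ± 1.29 and 42.6% ± 4.31. In wild type the Efnb2 share was 39.2% ± 7.32 at P4 and 35.2% ± 5.69 at P8, a difference smaller than the spread. Whether shares differed between ages, or their age changes between genotypes, was not tested. Efnb1 kept to 16.1% to 19.3% in every library.

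All members but Boc had a negative correlation with the rod content of the libraries, which was also higher in most P8 libraries than at P4. Over the 11 libraries, which share depth and composition, Pearson's r between log2 CPM of a member and of the rod marker sum was -0.95 for Efnb2, -0.93 for Ephb2 and Efnb1, -0.88 for Ephb1, -0.77 for Ephb3, -0.69 for Zic2 and Slc6a4, -0.62 for Efnb3 and 0.017 for Boc, as a description. With the dividing-cell sum, r was 0.94 for Zic2, 0.93 for Ephb3 and 0.90 for Efnb2, against 0.25 for Efnb3. With the ganglion cell marker sum, r was 0.82 for Efnb2, 0.80 for Slc6a4 and 0.76 for Ephb2, and -0.31 for Boc. With the amacrine cell marker sum, r was 0.63 for Efnb3, 0.12 for Ephb2 and -0.64 for Zic2. In wild-type P8, 6 members (Ephb1, Ephb2, Efnb1, Efnb2, Efnb3 and Boc) were highest in replicate 1, which had the lowest rod sum, and lowest in replicate 3, which had the highest. Ephb3 and Zic2 stood in the opposite order there. Replicate 3, with a rod sum of 6749 CPM, lay inside the range of the Kir2.1 P8 libraries for 8 of 9 members, all but Ephb3. Replicates 1 and 2 did so only for Ephb3 and Slc6a4. Some misses of replicate 2 were narrow: Ephb1 was at 36.40 CPM against at most 36.36 CPM in Kir2.1, and Efnb3 at 54.1 against 53.6 CPM. How often all genes showed these orders and ranges was not counted, so they cannot be called particular to the members. The part of rod content in the P8 genotype values and in the age changes was not tested.

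**Figure D4:**
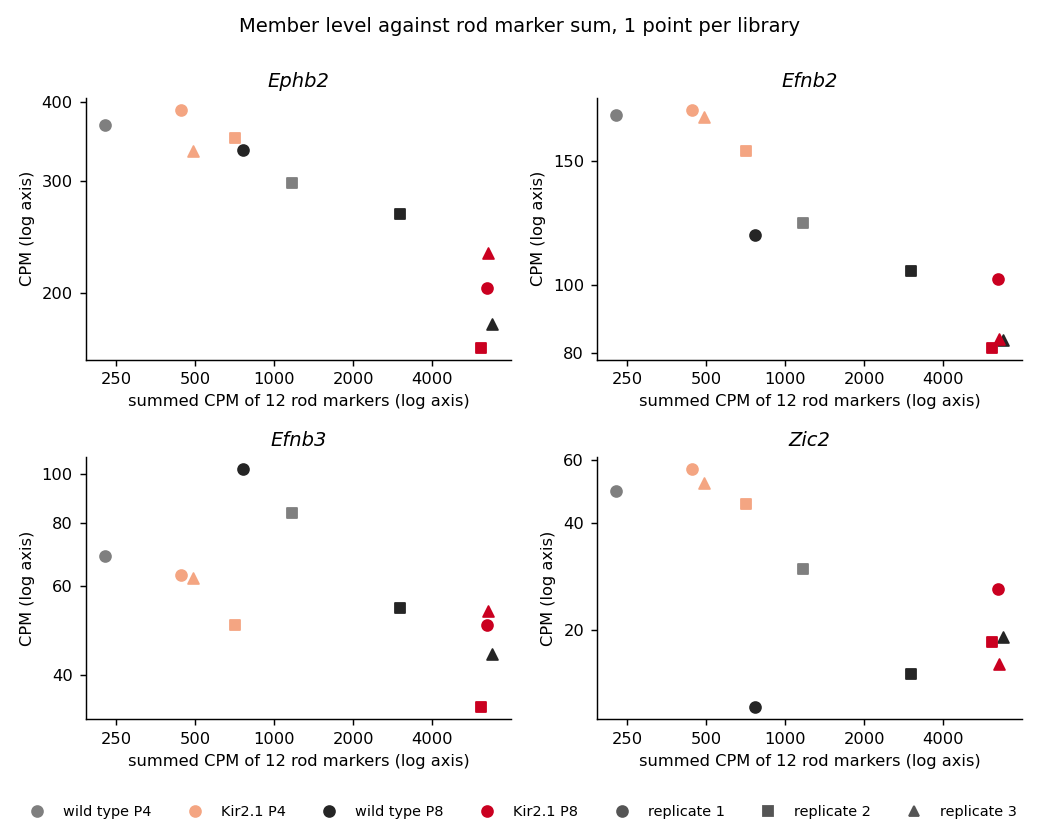
CPM of Ephb2, Efnb2, Efnb3 and Zic2 (vertical log axes) against the summed CPM of 12 rod markers (horizontal log axis), with 1 point per library, coloured by group and shaped by replicate number. Ephb2 and Efnb2 descend along the axis, and the wild-type P8 points (black) are spread from 763 to 6749 CPM of rod markers while the Kir2.1 P8 points (red) lie at 6112 to 6533.

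A further fit left out wild-type P4 replicate 2 and wild-type P8 replicate 1, an exclusion chosen after seeing the data. The first had the highest rod sum at P4 (1171 CPM) and the second the lowest at P8 (763 CPM). Wild-type P4 replicate 1 was kept, although its rod sum (226 CPM) also lay outside the Kir2.1 P4 range of 441 to 707 CPM. In this fit the wild-type age change of Efnb2 was -0.91. Wild-type P4 is then 1 library, assumed to vary like the other groups. The wild-type age values and the P4 genotype values of the members therefore rest on it. The genotype comparisons called none. At P4 the values of Ephb1, Ephb2, Ephb3, Efnb1 and Efnb2 lay between -0.085 and -0.0027 on the log2 scale, below 0 where all libraries gave values above 0. The fit that left out only wild-type P4 replicate 1 moved the P4 values the other way, to a median of 0.29 over the 9 members.

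Across the 11 libraries Ephb1, Ephb2, Efnb1 and Efnb2 followed each other, with Pearson's r of log2 CPM from 0.87 to 0.97 over their 6 pairs and the highest for Ephb2 with Efnb1. Ephb3 was closest to Zic2 (0.94). Zic2 and Ephb1 had an r of 0.55, and Boc had an r between -0.35 and 0.30 with each of the others. Among 12225 genes with a mean of at least 5 CPM, the genes with the most similar pattern were Qk for Ephb1 (r = 0.98), Usp42 for Ephb2 (0.98), Prdx4 for Ephb3 (0.99), Slc1a6 for Efnb1 (0.98), Mex3d for Efnb2 (0.99), Fgd1 for Efnb3 (0.95), Golm1 for Zic2 (0.995), Susd6 for Boc (0.92) and Sord for Slc6a4 (0.95). Next came Snrpa and Rnf44 for Ephb1, Tfap2a and Cbx5 for Ephb2, Wasf2 and Npc2 for Zic2, and Gm9800 and Csrp2 for Efnb2. These libraries differ in age and composition together, and such values carry no test.

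Other genes of the same pathways also fell with age. Of 24 cytoplasmic partners of EphB receptors and ephrin-B ligands, 7 passed lower and 0 higher in Kir2.1 and 3 lower and 0 higher in wild type, where 8.73% and 3.58% of all genes passed lower, with median log2 fold changes of -0.39 and -0.19. In Kir2.1 the 4 with the largest change were Rgs3 (-1.52 ± 0.19), which carries ephrin-B reverse signals to G proteins, Tiam1 (-0.96 ± 0.14) and Kalrn (-0.89 ± 0.14), exchange factors for Rac, and the kinase Pak1 (-0.77 ± 0.18), with edgeR adjusted p from 0.000328 to 0.0130. In wild type Rgs3 (-1.47 ± 0.20), Kalrn (-0.60 ± 0.15) and the Src-family kinase Fyn (-0.57 ± 0.14) passed, with edgeR adjusted p from 0.00167 to 0.0440.

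Of 18 other genes of the ipsilateral and contralateral ganglion cell programs, 9 passed lower in Kir2.1 and 6 in wild type, and 0 higher in either, with medians of -0.70 and -0.96, against 8.73% and 3.58% of all genes passing lower. Zic5, which lies 9757 bases from Zic2 on the opposite strand, fell by 1.62 ± 0.35 on the log2 scale in wild type and by 1.47 ± 0.32 in Kir2.1. The transcription factor gene Pou3f1 fell by 2.60 ± 0.35 in wild type and by 2.17 ± 0.31 in Kir2.1, and Sox11 fell likewise (-1.38 ± 0.25 and -1.92 ± 0.24). Isl2, which marks contralateral ganglion cells, fell in wild type (-2.22 ± 0.53, edgeR adjusted p = 0.0331) and was at -0.93 ± 0.47 in Kir2.1 (edgeR adjusted p = 0.211). Foxd1, the ventrotemporal factor upstream of Zic2, fell in Kir2.1 (-3.07 ± 0.62, edgeR adjusted p = 0.00558), from 3.76 to 6.14 CPM at P4 to 0.45 to 0.75 CPM at P8. In wild type its ages overlapped, at 5.13 and 1.44 CPM at P4 and 2.02, 0.85 and 0.49 CPM at P8 (-1.56 ± 0.63, edgeR adjusted p = 0.193).

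Of 11 dorsal and ventral patterning genes tested, 3 passed lower in Kir2.1 and 1 in wild type, and 0 passed higher, with medians of -0.85 and -0.39 (8.73% and 3.58% of all genes passed lower). Nr2f1 passed in both (-1.23 ± 0.16 in Kir2.1 and -0.98 ± 0.17 in wild type), and the dorsal factor Tbx3 (-1.02 ± 0.18) and Chrdl1 (-0.95 ± 0.26) passed in Kir2.1. Of 10 genes that act with Boc in hedgehog reception, 7 passed lower in Kir2.1 and 5 in wild type, and 0 higher, with medians of -1.99 and -1.41, where 8.73% and 3.58% of all genes passed lower, and Boc itself gave no call. Gli1, a transcriptional target and effector of the pathway, fell by 4.29 ± 0.39 on the log2 scale in Kir2.1 and by 3.76 ± 0.42 in wild type, to at most 1.57 CPM in a P8 library, and Hhip, a target that binds the ligand, fell as well (-3.29 ± 0.36 and -2.82 ± 0.37). So did Gli3 (-2.39 ± 0.30 and -2.20 ± 0.32) and Gli2 (-2.26 ± 0.32 and -1.70 ± 0.34).

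Of 8 serotonin genes tested, 1 passed lower in wild type and 1 lower and 1 higher in Kir2.1, with medians of -0.34 and -0.69. Of all genes, 3.58% passed lower in wild type, and 8.73% passed lower and 7.93% higher in Kir2.1. Slc18a2, the vesicular transporter that loads serotonin, passed lower in both genotypes (-2.42 ± 0.35 in wild type, edgeR adjusted p = 0.00216, and -2.11 ± 0.35 in Kir2.1, edgeR adjusted p = 0.00188). Tph1, an enzyme of serotonin synthesis, passed higher in Kir2.1 (3.10 ± 0.81, edgeR adjusted p = 0.0215), at 0.17 to 0.31 CPM at P4, near the level of 3 counts, and 1.96 to 2.65 CPM at P8. In wild type it was at 0 and 0.34 CPM at P4 and at 0.64, 1.28 and 3.01 CPM at P8, also without overlap (3.20 ± 0.999, edgeR adjusted p = 0.0985), and the difference between the age changes had an edgeR adjusted p of 0.9998. No gene of the lists named here passed between genotypes at P4 or P8, where 0% of all genes passed. Compared with any P4 library, dividing-cell marker sums were lower in every P8 library, ganglion cell marker sums lower in 5 of 6 and rod marker sums higher in 5 of 6, and their part in these age differences was not tested.

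In the authors' deposited table no member was called at P4, where 2.27% of the genes with an adjusted p were called. Its P4 log2 fold changes for the members ran from -0.19 for Efnb3 to 0.36 for Zic2. Its P8 values, beside those for Ephb2 and Efnb3, were -0.43 for Efnb2 (adjusted p = 0.134 in the authors' deposited table), -0.54 for Efnb1 (0.216), -0.41 for Ephb1 (0.356), 0.54 for Zic2 (0.305), -0.035 for Ephb3 (0.976) and -0.40 for Boc (0.761), and Slc6a4 had no adjusted p. The signs at P8 were those of the edgeR fit for all 9 members. At P4 they were not for Efnb1 (-0.0072 in the authors' deposited table and 0.052 in the edgeR fit) and Slc6a4 (0.23 and -0.73). Across 13824 genes the P4 fold changes of the authors' deposited table had an r of 0.65 with those of all 5 P4 libraries, as a description. Leaving out 1 library gave an r from 0.23 (without wild-type P4 replicate 2) to 0.73 (without wild-type P4 replicate 1).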

How the data were processed

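The authors deposited whole-number counts per Ensembl gene for each library. Per the submitters' processing notes, the tools were cutadapt 1.18, STAR 2.5.0c, SAMtools 1.9, bedtools 2.26.0, HTSeq 0.6.1 and DESeq2, and the build mm10. Strand setting and annotation are not given in the sources used here. Per the file headers, the authors' deposited comparison tables hold log2 fold changes with standard errors, p-values and adjusted p-values, a mean normalized count (a signal) and a statistic (a score). Records naming no gene (74.6% to 79.8% of a library) were left out. Counts were tested with edgeR 4.0.16 (R 4.3.3): filterByExpr, TMM (factors 0.964 to 1.05), a quasi-likelihood fit of 4 group means over 11 libraries, and Benjamini-Hochberg adjustment over 18188 genes at 0.05. SE is the log2 fold change over the root of F. The code was tested on simulated data. Correlations used log2(CPM + 0.5), or group means of DESeq2-scaled counts + 0.5 beside the authors' table. Groups came from titles. Named genes were the members, Ephb4, Ephb6, Epha4, up to 4 passing genes per list and contrast, and the 3 most similar genes per member; Efna5, Isl2 in Kir2.1, and Foxd1 and Tph1 in wild type were named after their values were seen. A gene that this rule would name is not reported here. Members and lists were chosen with earlier results of these data known. Alternatives used DESeq2 1.42.0, limma 3.58.1 voom, other filters and scalings, and libraries left out.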

Additional observations from a re-analysis of the deposited data

How the results depend on the processing

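The counts of members called between genotypes, and for the difference of the genotype effects, stayed at 0 in every setting except the DESeq2 test on the P8 libraries without wild-type P8 replicate 3, which called 1 member (Ephb2) at P8. Over all genes the count ranged from 0 to 339 at P4, from 0 to 1288 at P8 (highest in that DESeq2 test), from 113 to 2058 for age in wild type and from 1764 to 4286 for age in Kir2.1. For age in Kir2.1, Zic2, Ephb3 and Efnb2 passed in all 6 fits that left out 1 library and the 5 called members passed in all 9 other settings. The number called was 3 to 5 when 1 library was left out (3 when the library left out was Kir2.1 P8 replicate 2 or Kir2.1 P4 replicate 1) and 5 to 7 in the other settings. For age in wild type it was 0 to 2 when 1 library was left out, 2 with the DESeq2 test, 3 with no filter on low counts, 0 with only the libraries compared and 2 without wild-type P4 replicate 2 and wild-type P8 replicate 1.

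Same-numbered libraries deviated together at r of 0.15 and 0.065 at P4, 0.12, 0.0015 and -0.10 at P8, 0.013 and 0.026 across ages in wild type and 0.063, 0.16 and 0.16 across ages in Kir2.1, so the numbers were not taken as pairs. With a replicate block the count was 0 in the genotype comparisons and their difference, 1 (Zic2) for age in wild type and 6 for age in Kir2.1, where Efnb1 was added.

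Signs changed only for values that passed no test. With voom weights Slc6a4 was at -0.57 at P8, Boc at 0.063 for age in Kir2.1, and the difference of genotype effects was 0.040 for Efnb3 and -0.029 for Zic2. With the replicate block that difference was -0.030 for Zic2, and Boc was at 0.0067 for age in Kir2.1. Without wild-type P4 replicate 2 and wild-type P8 replicate 1 the P4 values were -0.0027 for Ephb1, -0.040 for Ephb2, -0.035 for Ephb3, -0.085 for Efnb1 and -0.048 for Efnb2, and the difference was 0.037 for Efnb1 and 0.14 for Efnb3. The DESeq2 test without wild-type P8 replicate 3 gave 0.0089 for Ephb3 at P8. With 1 library, or these 2, left out, P4 values ran from -0.0027 to 0.29 for Ephb1, from -0.040 to 0.26 for Ephb2, from -0.035 to 0.31 for Ephb3, from -0.085 to 0.20 for Efnb1, from -0.048 to 0.46 for Efnb2 and from -2.08 to 0.12 for Slc6a4. At P8 they ran from -0.22 to 0.010 for Ephb3 and from -0.92 to 5.50 for Slc6a4. The difference ran from -0.39 to 0.32 for Zic2, from -0.38 to 0.28 for Efnb3, from -0.58 to 0.037 for Efnb1 and from -0.19 to 6.23 for Slc6a4. Age values ran from -0.45 to 0.063 for Ephb1 and from -0.65 to 0.038 for Efnb3 in wild type, and from -0.34 to 0.22 for Boc in Kir2.1. The cause was not tested. A fit without 1 wild-type P4 library takes the spread of the other as that of the other groups. Slc6a4 had at most 83 counts in a library.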
